A study of Mus musculus with 24 samples.

Results

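The 7 genes described here encode membrane proteins that carry glucose and related sugars and polyols across proximal tubule cells. Slc5a1, Slc5a2, Slc5a10 and Slc5a11 belong to the sodium-coupled family, and Slc2a1, Slc2a2 and Slc2a5 to the facilitative family. They were chosen by name, and all 7 were among the 55335 genes counted and among the 16092 genes tested. Glucose that is filtered at the glomerulus is taken back almost completely by the proximal tubule. The sodium-coupled transporters SGLT2 (Slc5a2) in the early segments and SGLT1 (Slc5a1) in the late straight segment draw glucose in across the brush border, against its gradient. GLUT2 (Slc2a2) and GLUT1 (Slc2a1) then let it leave across the basolateral membrane.

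RNA of whole kidneys was sequenced from mice in which Pex5, the gene for the receptor that brings matrix enzymes into peroxisomes, was deleted in the renal tubule, to learn what loss of peroxisomes does to the adult kidney. The cKO mice were Pex5lox/lox/Pax8-rtTA/LC1 and the controls were littermates labelled Pex5lox/lox, so both carried the floxed alleles. Animals of both genotypes were on the C57BL/6J background and received doxycycline (DOX) for 2 weeks from 8 weeks of age, and were studied 4 weeks after the DOX ended. There were 6 male controls (Ctrlm), 6 male knockouts (cKOm), 6 female controls (Ctrlf) and 6 female knockouts (cKOf). The Pax8 promoter drives the DOX-dependent activator in tubule cells, and LC1 carries the Cre recombinase it switches on, whereas whole kidney also holds glomeruli, vessels and stroma. The labels give ZT9 for tissue collection and ZT3 for experiments in general, in hours after light on. The counts on genes totalled 19376152 in the shallowest kidney and 28470831 in the deepest, and the group medians lay between 20386767 (cKOf) and 22569484 (Ctrlf).

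Pex5 was examined first, since it checks the labels. Its level, in counts scaled to a common library total after TMM correction (CPM), ranged from 49.1 to 62.8 CPM in Ctrlm (median 53.4) and from 41.8 to 47.3 CPM in cKOm (median 43). It ranged from 43 to 61.7 CPM in Ctrlf (median 48.2) and from 38 to 48.5 CPM in cKOf (median 44.1). All 6 cKOm kidneys lay below the lowest Ctrlm kidney, while the female groups overlapped, with 2 of 6 cKOf kidneys below the lowest Ctrlf kidney. The log2 fold change was -0.31 (SE 0.082, edgeR adjusted p = 0.0219) in males and -0.21 (SE 0.082, edgeR adjusted p = 0.177) in females. The count covers the whole gene and all cells of the kidney, including exons outside the deleted stretch. The male call ended in 2 of 11 alternative settings, with hepatocyte markers as a covariate (log2 fold change -0.31) and without the kidneys high in a hepatocyte transcript (-0.26), and also without Ctrlm replicate 2 (edgeR adjusted p = 0.0656) or cKOm replicate 4 (edgeR adjusted p = 0.0505).

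Of the 7 transporters, 1 changed with the loss of Pex5 in males and none passed the threshold in females. Slc5a10 fell in cKOm, and in whole kidneys fewer proximal tubule cells and less Slc5a10 RNA per cell cannot be told apart. This is 1 of 7 members past an adjusted p of 0.05 in males, where 9.05% of all genes tested passed. With an unadjusted edgeR p under 0.05 the male count was also 1 of 7, beside 25.1% of all genes. In females 0 of 7 passed with edgeR, limma-voom or DESeq2, where edgeR called 0.851% of all genes, and 1 of 7 (Slc5a10) had an unadjusted p under 0.05 with edgeR and 2 of 7 with each of the other tools, beside 6.73% of all genes with edgeR. The difference between the female and the male effect was past the threshold for 0 of 7 members with each of these tools, against 2.31% of all genes with edgeR, and 0 of 7 had an unadjusted p under 0.05, beside 13.4% of all genes. In neither sex did the kidneys of the genotypes separate without overlap for any member, which they did for 7.38% of all genes tested in males and 0.559% in females. Exact two-sided permutation tests of single members, not adjusted, gave p = 0.00649 for Slc5a10, 0.0411 for Slc2a2 and 0.21 or more for the others in males. In females the exact tests gave p = 0.0325 for Slc5a10, 0.0541 for Slc2a5 and 0.102 or more for the others. The median log2 fold change of the 7 members was 0.049 in males and -0.067 in females, beside 0.015 and 0.002 over all genes tested. The small male values of Slc5a1, Slc5a2 and Slc2a5 turned in sign with the hepatocyte markers as a covariate.

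**Figure D1:**
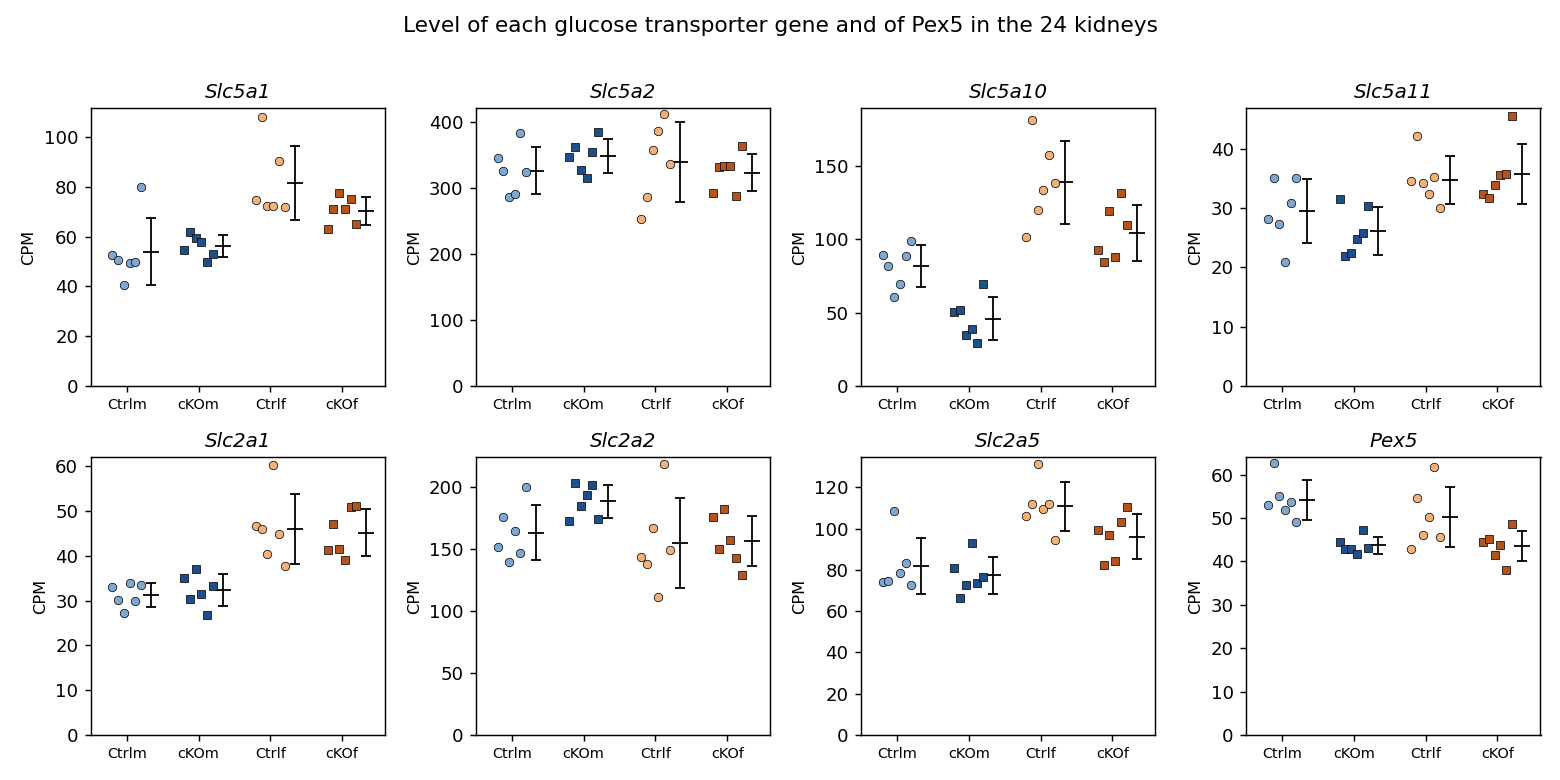
Level in CPM (linear axes from 0) of the 7 glucose transporter genes and of Pex5 in each of the 24 kidneys, 6 per group, with circles for Ctrl and squares for cKO, and the group mean ± SD to the right of the points. Slc5a10 is lower in cKOm than in Ctrlm with 1 overlapping kidney, and Slc5a10 and Slc2a1 are higher in every Ctrlf kidney than in any Ctrlm kidney.

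Per kilobase of merged exons, the scale on which different genes can be compared, Slc5a2 had the highest level in every group. It reached 113 ± 12.4 CPM per kilobase (mean ± SD, n = 6) in Ctrlm and 120.3 ± 8.73 in cKOm, and 117 ± 20.9 in Ctrlf and 112 ± 9.83 in cKOf, and its lowest kidney stood above the highest kidney of the next gene in each group. The next gene differed between the groups. In Ctrlm it was Slc5a10 at 34.5 ± 6.07, followed by Slc2a2 at 28.3 ± 3.85 and Slc2a5 at 24.1 ± 3.96, 3 genes whose neighbours overlapped in range. In cKOm Slc2a2 came next at 32.7 ± 2.32, then Slc2a5 at 22.7 ± 2.66, and Slc5a10 was the fourth, at 19.3 ± 6.21, not apart from Slc2a5. In Ctrlf and cKOf Slc5a10 was again the next gene, at 58.8 ± 11.9 and 44.2 ± 8.03, above Slc2a5 in 6 of 6 kidneys of both groups. Slc2a5 reached 32.6 ± 3.53 in Ctrlf and 28.2 ± 3.23 in cKOf, and its range overlapped that of Slc2a2, at 26.8 ± 6.28 and 27.1 ± 3.5.

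Slc5a1, Slc5a11 and Slc2a1 had the lowest levels per kilobase. Slc5a1 was above the others in mean in each group, at 13.1 ± 3.28 CPM per kilobase in Ctrlm and 13.7 ± 1.07 in cKOm, and 19.9 ± 3.61 in Ctrlf and 17.2 ± 1.37 in cKOf. Slc5a11 and Slc2a1 overlapped in range in all 4 groups, and in Ctrlf their order turned when the longest transcript was used as the length. Slc5a2 exceeded Slc5a1 by 9.19-fold per kilobase in the median Ctrlm kidney and by 8.66-fold in the median cKOm kidney. In females the same ratio was 6.55 in the median Ctrlf kidney and 6.58 in the median cKOf kidney.

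Slc5a2 (ENSMUSG00000030781, chr7:128265657-128272430, plus strand on GRCm38) encodes SGLT2, the main glucose carrier of the early proximal tubule. Its level ranged from 287 to 384 CPM in Ctrlm (median 325) and from 315 to 386 CPM in cKOm (median 351), and from 253 to 413 CPM in Ctrlf (median 347) and from 288 to 363 CPM in cKOf (median 332). The ranges overlapped throughout, and the lowest and the highest kidney of all 24 were both Ctrlf kidneys (replicate 1 and replicate 5). The log2 fold change was 0.096 in males (95% interval -0.11 to 0.30) and -0.067 in females (-0.27 to 0.14), with an edgeR adjusted p of 0.723 and 0.824. Exons of Slc5a2 overlap those of BC017158 on the opposite strand, which had 28.7 to 33.3 CPM in Ctrlm and a male log2 fold change of 0.097 (SE 0.068). The library kit keeps strand, but whether the counting used it is not given in the sources used here, and without strand the reads of such partners cannot be told apart.

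Slc5a1 (ENSMUSG00000011034, chr5:33104219-33162870, plus strand) encodes SGLT1, which carries glucose and galactose with high affinity in the late proximal tubule. It ranged from 40.4 to 79.9 CPM in Ctrlm (median 50.4) and from 49.9 to 61.8 CPM in cKOm (median 56.2). In females it ranged from 71.8 to 108 CPM in Ctrlf (median 73.6) and from 63.1 to 77.7 CPM in cKOf (median 70.9). All cKOm kidneys lay inside the Ctrlm range, whose top was set by Ctrlm replicate 6 alone, and 4 of 6 cKOf kidneys lay below the lowest Ctrlf kidney. The log2 fold change was 0.059 in males (95% interval -0.19 to 0.31, edgeR adjusted p = 0.883) and -0.21 in females (-0.46 to 0.037, edgeR adjusted p = 0.421).

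Slc5a10 (ENSMUSG00000042371, chr11:61672781-61720826, minus strand) encodes SGLT5, a kidney transporter of mannose and fructose in the brush border. In males it ranged from 60.4 to 99.3 CPM in Ctrlm (median 85.4) and from 29 to 69.6 CPM in cKOm (median 44.9). In females it ranged from 102 to 182 CPM in Ctrlf (median 136) and from 84.5 to 132 CPM in cKOf (median 101). In 5 of 6 cKOm kidneys Slc5a10 was below the lowest Ctrlm kidney, and cKOm replicate 6, at 69.6 CPM, lay above Ctrlm replicates 3 and 4, so the male groups overlapped. The mean was 81.6 ± 14.4 CPM in Ctrlm and 45.7 ± 14.7 in cKOm (SD, n = 6), a log2 fold change of -0.83 (SE 0.173) with a 95% interval of -1.19 to -0.48 (edgeR adjusted p = 0.00269). Slc5a10 stayed past the threshold in males in all 11 alternative settings and without each of the 24 kidneys.

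In females 3 of 6 cKOf kidneys were below the lowest Ctrlf kidney for Slc5a10. The means were 139 ± 28.2 CPM in Ctrlf and 105 ± 19 in cKOf, and the log2 fold change of -0.41 (SE 0.17) had a 95% interval of -0.76 to -0.062 that did not reach 0, but it missed the threshold over all genes (edgeR adjusted p = 0.204). The female effect minus the male effect was 0.42 (SE 0.242) on the log2 scale, with a 95% interval of -0.073 to 0.92 (edgeR adjusted p = 0.468), so a difference between the sexes was not shown. Genes on the opposite strand share exon sequence with Slc5a10 at both Grap and Fam83g. Their mean levels in Ctrlm were 5.64 ± 1.62 and 11.8 ± 0.825 CPM, below that of Slc5a10, and their male log2 fold changes were -0.38 (SE 0.171) and 0.13 (SE 0.089) (edgeR adjusted p = 0.255 and 0.517).

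Markers of tubule segments differed in level between the groups, and apart from the early-segment covariate their part in the result for Slc5a10 was not tested. The 8 markers of the late straight segment summed to 5829 ± 891 CPM in Ctrlm and 2724 ± 272 in cKOm (SD, n = 6), with Acy3 the most abundant in both. In Ctrlf the sum was 4393 ± 338 CPM and in cKOf 4088 ± 550.3, with Aadat the most abundant. In cKOm 6 of the 8 were lower and 1 higher past the threshold, and in Ctrlf against Ctrlm 4 were lower and 2 higher. Over all genes tested, 4.9% were lower and 4.14% higher in cKOm, and 8.71% were lower and 8.11% higher in Ctrlf. The 9 markers of the early segments, 1 of which (Slc5a12) is of the same transporter family as the members, summed to 10830 ± 574 CPM in Ctrlm and 9495 ± 310.3 in cKOm, with Slc34a1 the most abundant. The female sums were 11250 ± 495 CPM in Ctrlf and 10670 ± 739 in cKOf, with Lrp2 the most abundant. Of these 9, 3 were lower and 0 higher in cKOm past the threshold with edgeR, and 4 passed with limma-voom and with DESeq2. Slc5a12 passed with limma-voom and DESeq2 as higher in cKOm. No marker of the segments was at 0 in any group. With the early-segment markers as a covariate Slc5a10 stayed past the threshold in males.

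Hepatocyte transcripts differed between kidneys of the same group. The 16 markers summed to 608 ± 411 CPM in Ctrlm, from 112 in the lowest kidney to 1049 in the highest, and to 204 ± 174 in cKOm. The female sums were 91.7 ± 23.3 CPM in Ctrlf and 88.9 ± 34.7 in cKOf. Alb was the most abundant in every group and none was at 0. In males 4 of the 16 were lower and 1 higher in cKOm past the threshold, beside 4.9% and 4.14% of all genes tested. With edgeR 15 were lower in Ctrlf than in Ctrlm, beside 8.71% of all genes, where 9 passed with limma-voom and 16 with DESeq2. Slc5a10 stayed past the threshold in males with these markers as a covariate and without the 5 kidneys above 200 CPM of Alb. Those were 4 Ctrlm kidneys and 1 cKOm kidney. Only Ctrlm replicates 5 and 6 remained as male controls, at 88.8 and 99.3 CPM of Slc5a10.

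Markers of the other cell types of the kidney are given here for the male groups. Those of the loop, distal tubule and collecting duct summed to 5370 ± 576 CPM in Ctrlm and 6304 ± 267 in cKOm, with Umod the most abundant and 2 of 8 higher and 1 lower past the threshold. Macrophage markers summed to 106 ± 18.5 CPM in Ctrlm and 78.8 ± 9.04 in cKOm, with 1 of 5 lower. Over all genes tested, 4.14% were higher and 4.9% lower in cKOm past the threshold. The podocyte sum was 479 ± 45 CPM in Ctrlm and 520.4 ± 10.7 in cKOm, and the endothelial sum 481 ± 43.1 and 445 ± 26. Stroma markers summed to 218 ± 24.6 CPM in Ctrlm and 179.8 ± 21.1 in cKOm, erythroid markers to 80.1 ± 25.3 and 68.3 ± 11.9, and adipocyte markers, which include Slc2a4, to 31.1 ± 17.6 and 36.7 ± 26.7. No marker of these lists was at 0 in either male group, and the part of these cell types in the result was not tested.

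Slc5a11 (ENSMUSG00000030769, chr7:123214780-123273253, plus strand) encodes a sodium-coupled transporter of myo-inositol that also accepts glucose. It ranged from 20.9 to 35.1 CPM in Ctrlm (median 29.5) and from 21.9 to 31.6 CPM in cKOm (median 25.3), and from 30 to 42.2 CPM in Ctrlf (median 34.5) and from 31.7 to 45.6 CPM in cKOf (median 34.7). All 6 cKOm kidneys lay inside the Ctrlm range, and the highest of the 24 kidneys was cKOf replicate 6. The log2 fold change was -0.18 in males (95% interval -0.42 to 0.071, edgeR adjusted p = 0.531) and 0.042 in females (-0.20 to 0.29, edgeR adjusted p = 0.921).

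Among the facilitative transporters, Slc2a2 (ENSMUSG00000027690, chr3:28697903-28731359, plus strand) encodes GLUT2, the basolateral exit of the early proximal tubule. It ranged from 139.6 to 199.8 CPM in Ctrlm (median 158) and from 172 to 203 CPM in cKOm (median 189), and from 111 to 218 CPM in Ctrlf (median 146) and from 129 to 182 CPM in cKOf (median 153). In males 2 of 6 cKOm kidneys exceeded the highest Ctrlm kidney and none lay below the lowest. The male log2 fold change was 0.21 (95% interval -0.036 to 0.45, edgeR adjusted p = 0.421) and the female one 0.014 (-0.23 to 0.26, edgeR adjusted p = 0.977). Liver cells also make Slc2a2, and the part of liver RNA in its values was not tested. Slc2a2 was at 151.5, 175.4, 139.6 and 163.9 CPM in Ctrlm replicates 1 to 4. In Ctrlm replicates 5 and 6 it was at 146.7 and 199.8 CPM. Hepatocyte transcripts were high in 4 Ctrlm kidneys (replicates 1 to 4) and 1 cKOm kidney. With the hepatocyte markers as a covariate the male value was 0.058, and without those kidneys 0.077, both short of the threshold.

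Slc2a1 (ENSMUSG00000028645, chr4:119108711-119137983, plus strand) encodes GLUT1, a basolateral transporter of the late proximal tubule and of many other cells of the kidney. It ranged from 27.2 to 33.9 CPM in Ctrlm (median 31.7) and from 26.9 to 37.2 CPM in cKOm (median 32.4), and from 37.8 to 60.4 CPM in Ctrlf (median 45.5) and from 39 to 51.3 CPM in cKOf (median 44.4). The genotypes overlapped in both sexes, and every female kidney was above every male kidney. The log2 fold change was 0.049 in males (95% interval -0.16 to 0.26, edgeR adjusted p = 0.886) and -0.026 in females (-0.24 to 0.18, edgeR adjusted p = 0.946).

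Slc2a5 (ENSMUSG00000028976, chr4:150119283-150144169, plus strand) encodes GLUT5, the apical transporter of fructose. It ranged from 72.6 to 108 CPM in Ctrlm (median 76.7) and from 66.6 to 93.1 CPM in cKOm (median 75.2), and from 94.3 to 131 CPM in Ctrlf (median 111) and from 82.1 to 111 CPM in cKOf (median 98). The top of the Ctrlm range was replicate 3 alone, and 2 of 6 cKOf kidneys were below the lowest Ctrlf kidney. The log2 fold change was -0.085 in males (95% interval -0.29 to 0.12, edgeR adjusted p = 0.77) and -0.21 in females (-0.41 to 0.002, edgeR adjusted p = 0.323). Per kilobase, the ratio of Slc5a10 to Slc2a5, which both carry fructose, was 1.48 ± 0.405 in Ctrlm and 0.861 ± 0.3 in cKOm, and 1.82 ± 0.412 in Ctrlf and 1.56 ± 0.198 in cKOf.

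**Figure D2:**
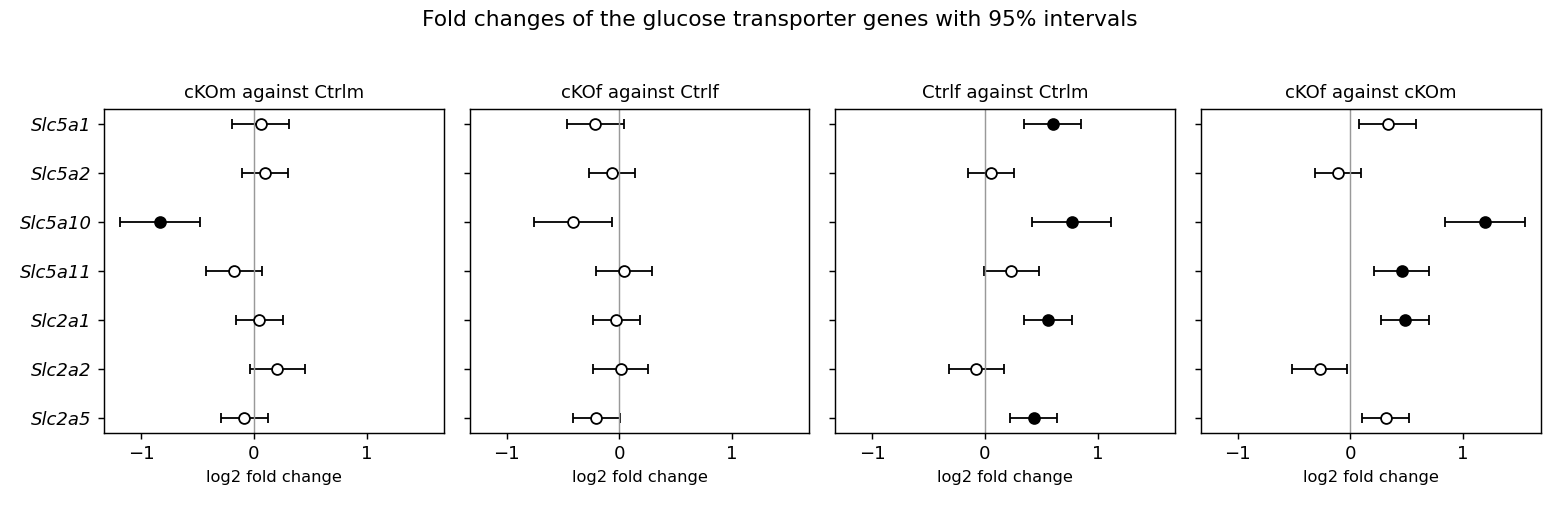
Log2 fold change of each of the 7 transporter genes with its 95% interval from edgeR in 4 comparisons of 6 against 6 kidneys, with filled points past an adjusted p of 0.05. Slc5a10 is the filled point of the male genotype comparison, no point is filled in the female one, and 4 are filled for Ctrlf against Ctrlm.

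Several transporters were higher in female than in male controls. In control kidneys 4 of 7 members were higher in females, where 8.11% of all genes tested were higher past the threshold, and 0 of 7 were lower. Slc5a10 was 0.77 higher on the log2 scale in Ctrlf than in Ctrlm (SE 0.171, edgeR adjusted p = 0.00181), and Slc5a1 was 0.60 higher (SE 0.122, edgeR adjusted p = 0.000712). Slc2a1 was 0.56 higher (SE 0.102, edgeR adjusted p = 0.000216) and Slc2a5 0.43 higher (SE 0.101, edgeR adjusted p = 0.0029). The female and male control kidneys did not overlap for Slc5a10 and Slc2a1, 2 of 7 members against 3.4% of all genes tested. For Slc5a1, 2 of 6 Ctrlf kidneys were above the highest Ctrlm kidney, and for Slc2a5 4 of 6 were.

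The remaining members did not pass this test. The log2 difference of Ctrlf from Ctrlm was 0.23 for Slc5a11 (95% interval -0.012 to 0.48), 0.055 for Slc5a2 (-0.15 to 0.26) and -0.077 for Slc2a2 (-0.32 to 0.17). Without the kidneys of high Alb, Slc5a11 was at 0.056. Slc2a2 was at -0.29 with the hepatocyte covariate, -0.21 with the early-segment covariate and -0.19 without those kidneys, and between -0.22 and -0.014 with 1 kidney left out, without passing the threshold. Alb, a hepatocyte transcript, was between 224 and 662 CPM in Ctrlm replicates 1 to 4 and at most 60.2 in any female kidney. With the hepatocyte markers as a covariate, the difference of Slc5a10 between the sexes became 0.65 on the log2 scale and missed the threshold (edgeR adjusted p = 0.0574). Without the 5 kidneys above 200 CPM of Alb, a setting chosen after seeing the data that left 2 Ctrlm kidneys, it was 0.54 (edgeR adjusted p = 0.203) and that of Slc5a1 0.31 (edgeR adjusted p = 0.266), while Slc2a1 and Slc2a5 stayed past the threshold in both settings.

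Markers of other cells of the kidney also differed between the control sexes, and their part in the result was not tested. Those of the loop, distal tubule and collecting duct summed to 7203 ± 322 CPM in Ctrlf, against 5370 ± 576 in Ctrlm (SD, n = 6), with 5 of 8 higher and Umod the most abundant. Podocyte markers summed to 615 ± 57.9 CPM against 479 ± 45, with 4 of 5 higher and Podxl the most abundant. Of the 9 early-segment markers 3 were higher and 2 lower in Ctrlf, and 1 of 6 endothelial and 1 of 5 adipocyte markers (Slc2a4) were higher. Over all genes tested, 8.11% were higher and 8.71% lower in Ctrlf past the threshold. The Ctrlf sums were 507 ± 12.9 CPM for endothelial, 219 ± 43.3 for stroma, 113 ± 33.6 for macrophage, 124 ± 60 for erythroid and 62.2 ± 91.6 for adipocyte markers, and no marker was at 0. The adipocyte sum was 249 CPM in Ctrlf replicate 6 alone, with a group median of 24.8, and the 4 members past the threshold stayed past it without that kidney. Between the knockout sexes 2 of 8 loop, distal and collecting duct markers and 1 of 5 podocyte markers were higher in cKOf, as were 1 of 6 endothelial and 1 of 5 stroma markers. There 4 of the 8 late-segment markers were higher and 3 lower, 2 of the 9 early-segment markers higher and 1 lower, and 2 of the 16 hepatocyte markers lower. Over all genes tested, 4% were higher and 4.14% lower in cKOf past the threshold.

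Between the knockout sexes, a comparison added after the values were seen, 3 of 7 members were higher in cKOf, against 4% of all genes tested. They were Slc5a10 at 1.19 on the log2 scale (edgeR adjusted p = 2.5e-05), Slc2a1 at 0.48 (adjusted p = 0.00246) and Slc5a11 at 0.45 (adjusted p = 0.0165). For these 3 genes and for Slc5a1, 4 of 7 members, every cKOf kidney was above every cKOm kidney, as for 3.24% of all genes tested. Slc5a1 missed the threshold over all genes at 0.33 (edgeR adjusted p = 0.097). In either direction 1310 of all 16092 genes tested passed here. The count of members past the threshold was 5 of 7 with the early-segment markers as a covariate, beside 2165 of 16092 genes. With the knockouts fitted alone the count was 6 of 7, beside 1675 of 15599 genes, and Slc5a1 passed (edgeR adjusted p = 0.00681). In both settings Slc2a2 passed as lower in cKOf, and with 1 kidney left out the count was 2 to 4. The call of Slc5a11 ended without cKOf replicate 6 (edgeR adjusted p = 0.0534) or cKOm replicate 2 (edgeR adjusted p = 0.0501). The comparisons of sexes and of genotypes use the same kidneys and are not independent of each other.

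Across the 24 kidneys, the correlation between members describes these libraries, which share the groups' differences, and carries no test. Over the 21 pairs of members Pearson's r of log2 CPM ran from -0.528 to 0.725. It was 0.725 for Slc5a10 and Slc5a11, 0.712 for Slc5a1 and Slc2a1, and 0.694 for Slc5a1 and Slc5a10. Once each group's mean was taken out, these were 0.485, 0.227 and 0.517. The early-segment pair Slc5a2 and Slc2a2 had an r of 0.199, and 0.113 within groups. Slc2a1 and Slc2a2, the exits of the late and the early segment, ran in opposite directions, with an r of -0.528 and of -0.444 within groups.

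The genes whose pattern over the 24 kidneys was most like that of Slc5a10 were Slc22a19 (r = 0.934, within groups 0.703), Kif12 (0.887, within groups 0.282) and Car5b (0.883, within groups 0.45). The r over all kidneys includes the differences between the groups. Slc5a2 was most like Sigirr (r = 0.749, within groups 0.772), Pgs1 (0.74, within groups 0.775) and Ubl3 (0.71, within groups 0.808), and Slc2a2 most like Ppp4r3b (r = 0.878, within groups 0.854), Ints2 (0.845, within groups 0.858) and Sepsecs (0.84, within groups 0.794). For Slc5a2 and Slc2a2 the likeness was as high or nearly as high inside the groups as over all kidneys. Slc5a1 was most like Gm16010 (r = 0.84, within groups 0.732), Npnt (0.84, within groups 0.579) and Itga6 (0.832, within groups 0.523). Slc2a1 was most like Capg (r = 0.896, within groups 0.638), Kng2 (0.895, within groups 0.656) and Wfdc2 (0.887, within groups 0.555). Slc2a5 was most like Pla2g5 (r = 0.843, within groups 0.504), Apoe (0.83, within groups 0.563) and Wfdc16 (0.829, within groups 0.514), and Slc5a11 most like Ltc4s (r = 0.837, within groups 0.727), Smim6 (0.786, within groups 0.605) and Mpst (0.762, within groups 0.479). For Slc5a1, Slc2a1, Slc2a5 and Slc5a11 the r within groups was below the r over all kidneys for each gene named.

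Promoter windows from RefSeq on GRCm38.p6, 250 bases before to 50 after a gene's start, matched 6 of the 7 members and gave 7 windows, since Slc5a10 had 2. Slc5a2 had no entry. Short motifs were searched on both strands. The nuclear receptor motif AGGTCA lay in 3 of the 7 windows and in 16.3% of all 32851 promoter windows. The androgen receptor motif TGTTCT lay in 1 of the 7 and in 19% of all, and the hypoxia motif ACGTG in 2 and 19.6%. A match describes the letters in the window and no binding was measured.

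The windows of Slc5a10, the member that changed with genotype, are printed 5′ to 3′ on the gene's strand, with motif matches in capitals. The upstream window (chr11:61720750-61721049, minus strand) holds the start of exon 1 of 2 of the 4 annotated transcripts, has 77 bases of exon, and carries TGACCT, the reverse complement of the nuclear receptor motif, at base 93. The downstream window (chr11:61719936-61720235, minus strand) holds the start of exon 1 of 2 of the 4 transcripts too, has 62 bases of exon, and none of the 3 motifs is in it.
Slc5a10 upstream: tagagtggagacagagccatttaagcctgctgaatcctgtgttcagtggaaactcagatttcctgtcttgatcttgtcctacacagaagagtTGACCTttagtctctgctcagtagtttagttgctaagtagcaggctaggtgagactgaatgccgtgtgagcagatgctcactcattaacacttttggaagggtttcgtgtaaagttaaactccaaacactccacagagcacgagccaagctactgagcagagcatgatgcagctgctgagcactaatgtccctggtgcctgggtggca
Slc5a10 downstream: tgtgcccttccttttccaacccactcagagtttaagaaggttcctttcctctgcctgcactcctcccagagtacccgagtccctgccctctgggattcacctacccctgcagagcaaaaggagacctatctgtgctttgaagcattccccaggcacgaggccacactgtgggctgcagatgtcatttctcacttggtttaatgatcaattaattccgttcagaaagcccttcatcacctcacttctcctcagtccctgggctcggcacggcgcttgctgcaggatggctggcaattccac

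Of the members that were higher in female controls, Slc5a1 and Slc2a1 are shown because both hold the hypoxia motif. The Slc5a1 window (chr5:33103969-33104268, plus strand) carries ACGTG at base 109 inside the palindrome CACGTG, whose reverse complement match starts at base 108, and AGAACA, the androgen receptor motif on the other strand, at base 225. The Slc2a1 window (chr4:119108495-119108794, plus strand) carries ACGTG at base 215. The Slc2a5 window (chr4:150119094-150119393, plus strand), not printed, holds none of the 3 motifs.
Slc5a1: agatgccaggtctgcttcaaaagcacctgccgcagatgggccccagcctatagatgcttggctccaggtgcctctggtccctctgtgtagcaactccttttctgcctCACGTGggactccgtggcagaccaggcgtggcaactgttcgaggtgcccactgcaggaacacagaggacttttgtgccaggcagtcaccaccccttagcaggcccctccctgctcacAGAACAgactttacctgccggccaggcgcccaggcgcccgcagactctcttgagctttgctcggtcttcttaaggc
Slc2a1: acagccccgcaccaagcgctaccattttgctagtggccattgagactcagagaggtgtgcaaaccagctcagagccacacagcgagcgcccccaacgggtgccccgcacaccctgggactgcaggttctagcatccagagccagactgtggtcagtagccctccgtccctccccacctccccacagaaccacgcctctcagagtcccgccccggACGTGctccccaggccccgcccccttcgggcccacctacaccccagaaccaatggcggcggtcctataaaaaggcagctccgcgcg

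Of 18 other genes of both transporter families, 12 were tested. In males 2 of them passed the threshold with edgeR, 1 in each direction, where 4.14% of all genes tested were higher and 4.9% lower. With limma-voom and DESeq2, 2 genes of the Slc5 family passed and 0 of the Slc2 family, where 1 had an unadjusted p under 0.05. In females 0 passed with edgeR, limma-voom or DESeq2, where edgeR called 0.851% of all genes. An unadjusted p under 0.05 was found for 2 with each tool, beside 6.73% of all genes with edgeR. Between control sexes 4 were higher and 1 lower in females, beside 8.11% and 8.71% of all genes. Slc5a8, a sodium-coupled transporter of lactate and other monocarboxylates, fell from 334 ± 24.8 CPM in Ctrlm to 207 ± 23.3 in cKOm, a log2 fold change of -0.69 (SE 0.124, edgeR adjusted p = 0.00062) without overlap of the groups, and it was also lower in Ctrlf than in Ctrlm (-1.24, edgeR adjusted p = 2.09e-08). Slc2a12, encoding GLUT12, was higher in cKOm by 0.35 on the log2 scale (edgeR adjusted p = 0.0475). That call ended in 9 of 11 alternative settings (0.20 to 0.35 in these). It also ended in 19 of the 24 fits leaving out 1 kidney. Slc5a12, a lactate transporter of the early segments, was at 319.7 ± 77.2 CPM in Ctrlm and 495 ± 62 in cKOm without overlap, and its log2 fold change of 0.63 (SE 0.189) missed the threshold with edgeR (adjusted p = 0.0512) but passed it with limma-voom (adjusted p = 0.043) and DESeq2 (adjusted p = 0.0391). The genes higher in Ctrlf were Slc5a6, the multivitamin transporter (1.23, edgeR adjusted p = 3.64e-08), Slc5a3, a myo-inositol transporter (0.51, adjusted p = 0.0348), Slc5a9, which carries mannose and other sugars (0.37, adjusted p = 0.00599), and Slc2a4, the insulin-sensitive GLUT4 (0.40, adjusted p = 0.0209). The call of Slc5a3 ended in 6 of 10 settings (0.38 to 0.50) and in 7 of the 24 fits leaving out 1 kidney. That of Slc2a4 ended in 2 of 10 settings (0.25 to 0.40). It also ended without Ctrlf replicate 4 or Ctrlm replicate 4 (edgeR adjusted p = 0.0798 and 0.051).

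Enzymes that act on sugars inside the cell are given here as 2 lists. In the list of hexose phosphorylation and fructose metabolism, 3 of 11 genes tested were lower in cKOm and 0 higher with edgeR, against 4.9% of all genes tested that were lower, 3 passing with DESeq2 and 2 with limma-voom, and the list's median log2 fold change was -0.25 beside 0.015 over all genes tested. Khk, ketohexokinase, which phosphorylates fructose, ranged from 274 to 496 CPM in Ctrlm (median 340.2) and from 179 to 202 CPM in cKOm (median 181), and from 275 to 339.6 CPM in Ctrlf (median 327) and from 237 to 388 CPM in cKOf (median 262). Every cKOm kidney was below every Ctrlm kidney, and 5 of 6 cKOf kidneys were below the lowest Ctrlf kidney with replicate 6 above the highest. The male log2 fold change was -0.90 (SE 0.118, edgeR adjusted p = 8.85e-06), the female one -0.19 (SE 0.117, edgeR adjusted p = 0.458), and the difference between them 0.71 (SE 0.165) passed the threshold (edgeR adjusted p = 0.017). Sord, sorbitol dehydrogenase, which makes fructose, changed by -0.44 (SE 0.089, edgeR adjusted p = 0.00244) in males, a call that ended without the kidneys of high Alb, at -0.48.

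The last of the 3 was Gckr, the glucokinase regulator, at 0.762 ± 0.55 CPM in Ctrlm and 0.158 ± 0.113 in cKOm. Its counts were 1 to 33 in Ctrlm, 0 to 7 in cKOm and 3 to 8 in Ctrlf, and 3 counts are 0.0959 to 0.157 CPM, so the size of its differences is poorly determined. Its male log2 fold change of -2.26 (SE 0.638, edgeR adjusted p = 0.0351) became -1.20 with the hepatocyte markers as a covariate (edgeR adjusted p = 0.547). Gckr is also a liver transcript, and the part of liver RNA in its values was not tested. The male call ended in 4 of 9 settings (-2.28 to -1.20) and in 8 of the 24 fits leaving out 1 kidney. In control kidneys Hk1 (0.49, edgeR adjusted p = 0.0016) and Hkdc1 (0.73, adjusted p = 0.00561), both of the hexokinase family, were higher in females, and Sord (-0.36, adjusted p = 0.00535) and Gckr (-1.94, adjusted p = 0.0285) lower. Gckr's call there ended in 5 of 8 settings (-1.96 to -0.38) and in 5 of the 24 fits leaving out 1 kidney. The calls of Hk1 (0.41), Hkdc1 (0.60) and Sord (-0.38) ended without the kidneys of high Alb, and that of Sord with the hepatocyte covariate too (-0.36). In cKOf against Ctrlf 0 of the 11 genes passed the threshold with edgeR, limma-voom or DESeq2, where edgeR called 0.851% of all genes. An unadjusted p under 0.05 was found for 1 of 11, beside 6.73% of all genes with edgeR.

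**Figure D3:**
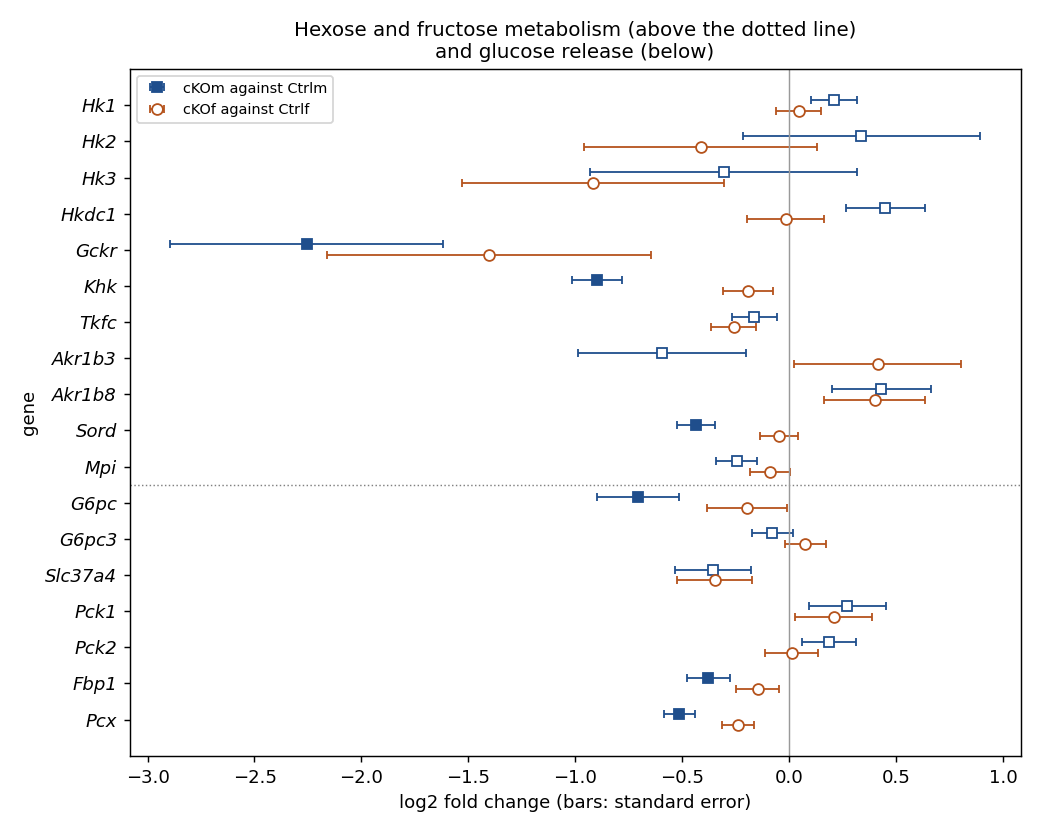
Log2 fold change of cKO against Ctrl with its standard error for the tested genes of hexose and fructose metabolism and of glucose release, in males (squares) and females (circles), 6 against 6 kidneys each, with filled symbols past an adjusted p of 0.05. The 6 filled symbols are all in males and all below 0.

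Of the genes that release or make glucose, 3 of 7 were lower in cKOm and 0 higher with edgeR, against 4.9% of all genes tested that were lower, 3 passing with limma-voom and DESeq2 too, and the list's median log2 fold change was -0.36. They were Pcx, pyruvate carboxylase, at -0.51 (SE 0.074, edgeR adjusted p = 3.56e-05), Fbp1, fructose bisphosphatase, at -0.38 (SE 0.101, edgeR adjusted p = 0.0227), and G6pc, the phosphatase that sets glucose free, at -0.71 (SE 0.19, edgeR adjusted p = 0.0249). The Pcx and Fbp1 groups did not overlap, and the calls of Fbp1 and G6pc ended with the hepatocyte markers as a covariate (log2 fold change -0.36 and -0.72) and without the kidneys of high Alb (-0.39 and -0.60). Leaving out Ctrlm replicate 2 or 5 also ended the Fbp1 call (edgeR adjusted p = 0.0655 and 0.0556), and that of G6pc ended without any 1 of Ctrlm replicates 2, 3 and 5 and cKOm replicates 3 and 6, with a log2 fold change of -0.69 to -0.63. Pck1, which commits carbon to glucose synthesis, was higher in Ctrlf than in Ctrlm by 0.84 on the log2 scale (edgeR adjusted p = 0.00138), and Pcx was lower there at -0.50 (edgeR adjusted p = 1.17e-05). In cKOf against Ctrlf 0 of 7 passed the threshold with edgeR or limma-voom and 1 with DESeq2, where edgeR called 0.851% of all genes. There 1 had an unadjusted edgeR p under 0.05, beside 6.73% of all genes, Pcx being at -0.24 (SE 0.074, edgeR adjusted p = 0.0594).

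Among partners and regulators of the transporters, 2 of 9 tested passed in males, against 9.05% of all genes. Txnip, an arrestin-like protein known to lower glucose uptake, rose from 378 ± 47.6 CPM in Ctrlm to 619 ± 79.2 in cKOm without overlap, a log2 fold change of 0.71 (SE 0.135, edgeR adjusted p = 0.00115), and Slc9a3r1, the brush border scaffold NHERF1, changed by -0.41 (SE 0.103, edgeR adjusted p = 0.0159). The Slc9a3r1 call ended with the hepatocyte covariate (-0.31), without the kidneys of high Alb (-0.45) and without Ctrlm replicate 3 (edgeR adjusted p = 0.0554), and that of Txnip without the kidneys of high Alb (0.60). Pdzk1ip1, the small partner protein of SGLT2, had a male log2 fold change of -0.18 (95% interval -0.40 to 0.04). Gorasp1 was lower in Ctrlf than in Ctrlm at -0.39 (edgeR adjusted p = 0.0208), a call that ended in 3 of 10 settings (-0.34 to -0.27) and without Ctrlm replicate 3 (edgeR adjusted p = 0.0758).

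Of 7 transcription factors tested 1 passed in males, against 9.05% of all genes. It was Mlxipl, the carbohydrate response factor ChREBP, at -0.40 (SE 0.093, edgeR adjusted p = 0.00804). The Mlxipl call ended with the hepatocyte covariate (-0.31) and without the kidneys of high Alb (-0.36). Of the 3 sodium pump genes 0 passed in males or females with edgeR, limma-voom or DESeq2, and 0 had an unadjusted edgeR p under 0.05 there. Of 7 myo-inositol genes, which include Slc5a3, 0 passed in males or females with these tools and 0 had an unadjusted p under 0.05. With edgeR 9.05% of all genes passed in males and 0.851% in females. Those with an unadjusted edgeR p under 0.05 were 25.1% and 6.73%. Between control sexes Impa1, which frees myo-inositol from its phosphate, was lower in Ctrlf at -0.42 (edgeR adjusted p = 0.0257), a call that ended in 4 of 10 settings (-0.52 to -0.38) and without Ctrlf replicate 4 or Ctrlm replicate 5 (edgeR adjusted p = 0.0596 and 0.101).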

How the data were processed

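The kidneys of 24 mice were grouped by the titles in the labels into Ctrlm, cKOm, Ctrlf and cKOf, 6 of each. The authors deposited reads per gene as whole-number counts that had not been normalized. According to the submitters' processing notes, cutadapt 1.8, STAR 2.5.3a, HTSeq 0.9.1 and GRCm38 were used. The library kit (TruSeq Stranded mRNA) keeps strand, and the strand setting of the counting is not given in the sources used here. Lines for reads not assigned to a gene held 34% to 41.5% of the reads in a file and were left out of the totals. Names and positions were taken from GENCODE for GRCm38, which held 55154 of the 55335 genes. Replicates of a group differed by more than sampling noise (chi-square over its degrees of freedom 9.83 or more in each of 60 pairs).

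The filter kept genes that reached 1 CPM in any kidney. They were fitted in edgeR 4.0.16 (R 4.3.3) with TMM factors and the means of the 4 groups, and contrasts were tested by quasi-likelihood. Benjamini-Hochberg adjustment was joint for the genotype tests of males and females, and separate for the interaction and for each comparison of sexes, with a threshold of 0.05. Standard errors were derived from the test statistic, and intervals are at 95%. Log2 CPM used a prior count of 2. Exact two-sided permutation tests were run for all members, and those of genotype are quoted. Those of sex are not, since members whose groups of 6 do not overlap always give the smallest p. The floor of 3 counts was 0.0959 to 0.157 CPM, and covers counting error only. The alternatives were limma-voom (limma 3.58.1), DESeq2 1.42.0, RLE factors, other filters, sexes or genotypes fitted apart, adjustment within each sex, marker covariates, a replicate block, another gene length and each kidney left out. The kidneys with Alb above 200 CPM were left out, and cKOf was compared with cKOm, after the data had been seen. Python 3.11.15 with pandas 2.3.3 and numpy 2.4.6 made the tables, and matplotlib 3.10.9 the figures. The procedure was run on simulated counts in which fold changes were set in cKOm only. Those counts held no difference between the control sexes, and the outcome is not reported here.

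The text names the 7 members, Pex5, every gene of 8 lists past the threshold in the male, female, interaction or control-sex test, and the 3 genes with the highest r to each member. Overlapping genes, Pdzk1ip1, Slc5a12 and single markers were named for their role after their values were seen. Some genes and a motif planned for these lists are not reported here or counted. Members and lists were chosen with earlier results of these data known.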

Additional observations from a re-analysis of the deposited data

Results flagged for a closer look

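Among 28 sets of 6 kidneys (7 members in 4 groups), 3 held a kidney far from the others, where chance gives about 1 in 20. Slc5a1 was at 79.9 CPM in Ctrlm replicate 6, with the next Ctrlm kidney at 52.7. Slc2a5 was at 108 CPM in Ctrlm replicate 3, with the next at 83.5. Slc5a11 was at 45.6 CPM in cKOf replicate 6, with the next at 35.8. Between the sexes, the effect of genotype differed for Khk by 0.71 (SE 0.165) on the log2 scale, females minus males (edgeR adjusted p = 0.017). Of the 7 members 0 passed the threshold in this test, which does not show equal effects.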

How the results depend on the processing

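The fall of Slc5a10 in males kept its direction and its side of the threshold in all 11 settings (-1.03 to -0.83 on the log2 scale, adjusted p 2.19e-05 to 0.0234) and without each kidney (-0.99 to -0.76). Of 357 values of members over 13 settings, 337 kept both; the cause of the other changes was not tested. With the hepatocyte markers as a covariate, signs turned for values short of the threshold, in males for Slc5a1 (-0.037), Slc5a2 (-0.019) and Slc2a5 (0.033) and between control sexes for Slc5a2 (-0.098); Slc5a10 between control sexes missed the threshold (0.65), and all genes past it were 874 in males, against 1456, and 1636 between control sexes, against 2707. Without the 5 kidneys of high Alb, added after seeing the data, signs turned for Slc5a1 (-0.25) and Slc5a2 (-0.031) in males, Slc5a1 (0.033) in the interaction and Slc5a2 (-0.089) between control sexes. There Slc5a1 (0.31) and Slc5a10 (0.54) missed the threshold, leaving 2 of 7 members, and all genes past it were 599 in males, 83 in females, against 137, and 1570 between control sexes; fewer samples were tested. Adjustment within each sex gave 43 genes in females, and DESeq2 gave 574 in the interaction, against 372. Between knockout sexes, Slc2a5 passed the threshold with DESeq2 (0.31), the filter of 6 kidneys (0.32), the hepatocyte covariate (0.37), the early-segment covariate (0.32), knockouts alone (0.32) and without high Alb (0.38). Slc2a2 passed it, lower in cKOf, with the early-segment covariate (-0.36) and knockouts alone (-0.27), and Slc5a1 with knockouts alone (0.33), so that 5 of 7 members passed with that covariate, beside 2165 genes against 1310, and 6 of 7 with knockouts alone, beside 1675 of 15599 genes against 1310 of 16092. With the longest transcript as length, Slc5a11 took place 6 and Slc2a1 place 7 in Ctrlf. With 1 kidney left out, the log2 values ran in males from -0.011 to 0.18 for Slc5a1 and -0.15 to 0.011 for Slc2a5, in females from -0.14 to 0.001 for Slc5a2, -0.039 to 0.11 for Slc5a11, -0.077 to 0.057 for Slc2a1 and -0.075 to 0.14 for Slc2a2, in the interaction from -0.13 to 0.032 for Slc2a1, between control sexes from -0.031 to 0.13 for Slc5a2, and between knockout sexes from 0.29 to 0.36 for Slc5a1, 0.37 to 0.51 for Slc5a11 and 0.27 to 0.37 for Slc2a5. Members past the threshold between knockout sexes ranged from 2 to 4. Same-numbered kidneys come from different mice and did not deviate together (r of deviations -0.462 to 0.216 over 36 pairs), so they were not paired. A replicate block gave 1268 genes past the threshold in males, 110 in females, 271 in the interaction, 2415 between control sexes and 1140 between knockout sexes, and changed the call of no member. All members were far above the floor of 3 counts in every kidney, and the intervals rest on 6 kidneys per group.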
